A study of Mus musculus with 12 samples.

Results

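A set of 40 genes of glycolysis and of the response to low oxygen was followed in haematopoietic stem cells of treated and control mice. Members were taken by gene name from a given list of 40 genes, each represented by the array probe with the highest mean signal, out of 37005 gene names on the array. All 40 were on the array, and 39 were tested; the exception was Adm, the gene of the peptide hormone adrenomedullin, for which no array read well above background. Marrow cells that bear Kit were enriched first. The LSK SLAM fraction was then sorted by flow cytometry; the name stands for cells without lineage markers that carry Sca-1 and Kit and are selected further by SLAM family proteins, a usual definition of mouse stem cells. A group of 3 mice had a 2-week continuous infusion of POL5551, which blocks the chemokine receptor CXCR4, at a dose of 100 mg/kg each day. The cytokine granulocyte colony-stimulating factor (G-CSF), which moves stem cells out of the marrow, was injected at 100 ug/kg every 12 h, 4 times over 2 days or 9 times over 5 days, in separate groups. Sham-operated mice were the controls. Each of the 4 groups had 3 male mice, and each mouse had 1 single-colour array, without pooling; the labels give neither strain nor age.

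Glycolysis splits glucose into pyruvate in the cytosol and yields ATP without oxygen, and lactate dehydrogenase then turns pyruvate into lactate. When oxygen is scarce, the prolyl hydroxylases that mark the alpha subunits of hypoxia-inducible factor (HIF) for destruction slow down, and the stabilised factor binds the core motif RCGTG, in which R is A or G, beside genes for glucose transporters, glycolytic enzymes and survival factors. Long-term stem cells in the marrow are known for a high rate of glycolysis and for stabilised HIF-1 alpha.

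The promoters of several members are shown first, because the motif of the shared regulator is a feature that the rule did not search for, although many members are on the list as known HIF targets. The 250 bases upstream of each annotated start, taken from the RefSeq promoter table on GRCm38.p6, were searched on both strands for the motifs ACGTG and GCGTG, spelled from RCGTG; ACGTG overlaps the E-box CACGTG. Starts were listed for 36 of the 40 members, with 51 starts in all; Epas1, Slc2a3, Bnip3l and Ndrg1 had none in the table. At least 1 of the motifs stood upstream of 80.4% of the members' starts, against 38.6% of all 32851 starts in the table. ACGTG stood upstream of 49% of the members' starts and 16.6% of all starts, and GCGTG upstream of 54.9% and 28.2%. Both motifs hold the pair CG, and the starts compared were not matched for base composition, whose part in these shares was not tested. Of the 9 listed members that were higher with POL5551 than after 2 days of G-CSF, 8 had ACGTG upstream of at least 1 start, as had 14 of the 26 other tested members. GCGTG stood upstream in 6 of those 9 and in 17 of the 26 others, and at least 1 of the motifs in all 9 and in 23 of the 26. Of the 9, 4 are printed, and with them the glucose transporter gene Slc2a1, whose level did not follow them, 5′ to 3′ with the motifs in capitals. Egln3 is at chr12:54203875-54204124 on the minus strand, Egln1 at chr8:124949255-124949504 on the minus strand, Ddit4 at chr10:59951771-59952020 on the minus strand, Ero1l (current symbol Ero1a) at chr14:45318573-45318822 on the minus strand, and Slc2a1 at chr4:119108495-119108744 on the plus strand.
Egln3: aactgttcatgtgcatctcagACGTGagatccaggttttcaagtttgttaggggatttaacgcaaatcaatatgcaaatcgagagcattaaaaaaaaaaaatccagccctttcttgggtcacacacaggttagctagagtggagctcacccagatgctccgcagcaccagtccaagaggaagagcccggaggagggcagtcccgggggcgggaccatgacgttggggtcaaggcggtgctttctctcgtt
Egln1: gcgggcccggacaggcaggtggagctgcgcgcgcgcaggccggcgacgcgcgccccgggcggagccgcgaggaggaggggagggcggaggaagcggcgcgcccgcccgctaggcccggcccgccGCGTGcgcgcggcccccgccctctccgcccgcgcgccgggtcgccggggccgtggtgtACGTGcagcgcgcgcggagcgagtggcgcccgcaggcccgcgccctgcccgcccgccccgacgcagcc
Ddit4: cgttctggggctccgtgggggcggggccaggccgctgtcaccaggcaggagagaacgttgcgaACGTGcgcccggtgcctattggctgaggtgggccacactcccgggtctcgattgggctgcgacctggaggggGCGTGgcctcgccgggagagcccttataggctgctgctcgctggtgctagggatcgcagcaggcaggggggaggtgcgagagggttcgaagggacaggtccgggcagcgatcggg
Ero1l: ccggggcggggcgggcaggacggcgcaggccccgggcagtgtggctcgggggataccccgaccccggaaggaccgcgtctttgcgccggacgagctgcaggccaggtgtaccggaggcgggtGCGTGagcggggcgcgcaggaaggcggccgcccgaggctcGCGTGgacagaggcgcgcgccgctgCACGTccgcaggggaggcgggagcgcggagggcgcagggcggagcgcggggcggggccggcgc
Slc2a1: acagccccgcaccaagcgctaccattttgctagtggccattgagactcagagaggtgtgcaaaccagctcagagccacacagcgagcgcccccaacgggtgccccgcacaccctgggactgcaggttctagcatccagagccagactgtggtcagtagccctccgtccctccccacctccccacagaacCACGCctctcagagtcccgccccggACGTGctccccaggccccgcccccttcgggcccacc

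On the other strand the motifs read CACGT and CACGC. Counting both strands, each of these 5 windows holds ACGTG 1 time, and GCGTG is found 2 times in Ero1l, 1 time each in Egln1, Ddit4 and Slc2a1, and not in Egln3. The 5 windows were picked without a stated rule, all from members with ACGTG, and do not stand for the other members. Higd1a, also among the 9, had GCGTG only, and Gpi1, Tpi1 and Eno2 had neither motif. A match of letters is a description of the window, not evidence that HIF binds there.

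Levels are given as the log2 of the processed signal minus the log2 of the array's 75th percentile, so 0 is the signal of that percentile on the same array. Levels of different genes come from different probes and are not compared. The 75th percentile ran from 1638 (sham 1) to 5579 (mouse 1 of the 5-day group), between 76.3% and 86.2% of spots were well above background, and none was saturated. Of the sort markers, Kit and Ly6a (Sca-1) were well above background on all 12 arrays and Slamf1 on 11, with sham 1 the exception. Sham 1 stood apart from the other arrays. Probes for genes that stem cells should lack (olfactory, vomeronasal, taste and keratin-associated genes, called off-tissue here) had a median level of -1.61 on sham 1, against -3.30 and -3.45 on sham 2 and 3, and it was the lowest of the 12 arrays for 21 of the 39 tested members. Differences from sham are therefore also given without it, in the text or as crosses in the plot of differences from sham. The arrays were on 6 slides: slide 1 held sham 1 and POL5551 1, slide 2 held sham 2, sham 3 and POL5551 2, slide 5 held POL5551 3 and the 5-day mouse 2, and the other 5-day mice had slides of their own. Slide 3 held the 3 mice of the 2-day group and no others, so that group and its slide cannot be told apart.

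Over the 40 members, the median level was 1.39, 1.81 and 1.17 in POL5551 mice 1 to 3, 0.28, 0.55 and 0.36 in 2-day G-CSF mice, 1.01, 0.90 and 0.63 in 5-day mice, and -0.20, 0.83 and 1.28 in sham mice. The POL5551 mice were above both G-CSF groups but overlapped the sham mice, among which sham 3 was above POL5551 3. The off-tissue median moved the other way. It was -5.17, -4.50 and -4.11 with POL5551, -2.40, -2.73 and -2.60 after 2 days, -3.97, -3.87 and -3.25 after 5 days and -1.61, -3.30 and -3.45 in sham mice. With the off-tissue median of each array as a covariate, the members' median difference was -0.24 between POL5551 and sham and -0.28 between POL5551 and 2 days of G-CSF, against 0.90 and 0.91 without the covariate, and no gene on the array was called in either comparison. The off-tissue medians of the POL5551 mice did not overlap those of the sham or 2-day mice. Covariate and treatment are thus largely confounded, and a loss of calls in this fit cannot tell them apart.

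**Figure D1:**
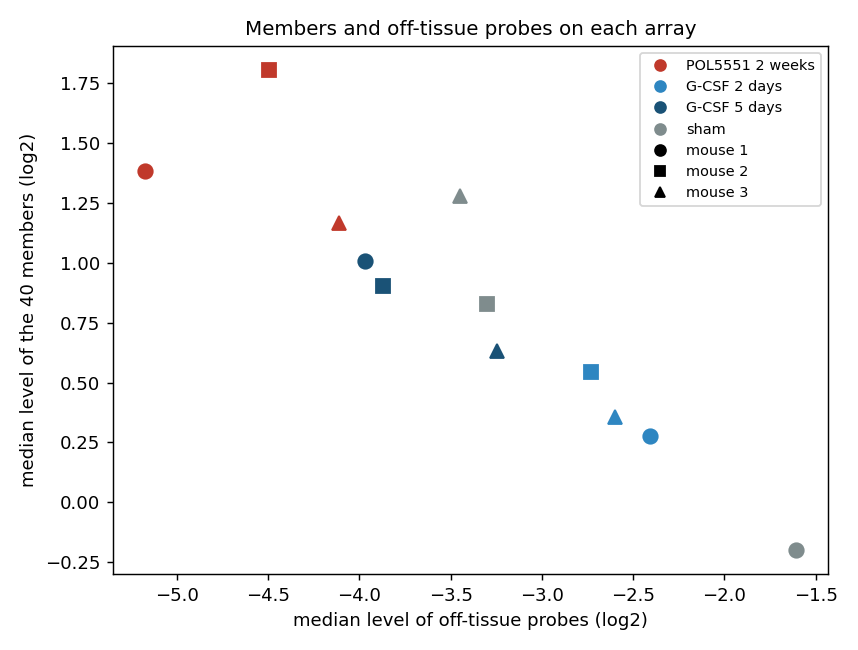
Each point is 1 array, coloured by group and shaped by mouse; the x axis is the median level of the off-tissue probes and the y axis the median level of the 40 members (both log2 relative to the array's 75th percentile). Sham 1 lies lowest and farthest right at -1.61 and -0.20, and POL5551 1 farthest left at -5.17.

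No member was called, at an adjusted p under 0.05 over all 33186 genes tested, in any comparison with sham. With POL5551, 36 of 39 members were nominally above sham, with a median difference of 0.90 on the log2 scale against -0.52 for all genes. Over the genome 2.28% of genes were called, 0.178% higher and 2.11% lower. An unadjusted p under 0.05 was reached by 14 of 39 members, close to the 35% of all genes. In 21 members the 3 POL5551 mice lay above the 3 sham mice without overlap, against 10.6% of all genes, and in none did they lie below, against 25.8%. The 8297 genes with the highest mean level had a median difference of 0.20, with 56.6% of them above sham, and the 20 members among them had a median of 0.59. Without sham 1, the median of the 39 members was 0.42 and 31 were above sham. The POL5551 mice then lay wholly above sham for 22 members and wholly below for 1, against 12.2% and 27.1% of all genes. No member was called without that array, where 0.21% of all genes were called, 0.0425% higher. Without sham 3, 4 members were called and 14.3% of all genes, 2.48% higher, and without sham 2, 1 member and 7.71%, 0.896% higher. Within slides, the median was 1.67 on slide 1 (1 mouse against sham 1, 37 of 39 above) and 0.49 on slide 2 (1 mouse against 2 sham mice, 35 of 39 above).

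After 2 days of G-CSF, 18 members were nominally above and 21 below sham, with a median difference of -0.03 against 0.10 for all genes, and 0.0331% of all genes were called, 0.0301% higher and 0.00301% lower. The mice lay wholly above sham for 2 members and wholly below for 2, against 6.59% and 5.32% of all genes. An unadjusted p under 0.05 was reached by 3 of 39 members and 9.12% of all genes. After 5 days, 29 were above and 10 below, with a median of 0.24 against -0.13, and 0.0663% of all genes were called, 0.0482% higher and 0.0181% lower. The mice lay wholly above sham for 5 members and wholly below for 3, against 4.4% and 8.15% of all genes. Here 4 of 39 members and 11.1% of all genes had an unadjusted p under 0.05. Without sham 1 the medians were -0.40 after 2 days and -0.08 after 5 days. The 2-day mice then lay wholly above sham for 3 members and wholly below for 18, against 30.8% and 20.6% of all genes, and the 5-day mice for 5 and 10, against 9.71% and 13.4%. The mouse numbers paired the 2-day and sham mice by their residuals, and with the number as a block 6 genes were called after 2 days, against 11 without it, and no member was called in either fit. All 3 comparisons share the sham mice.

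**Figure D2:**
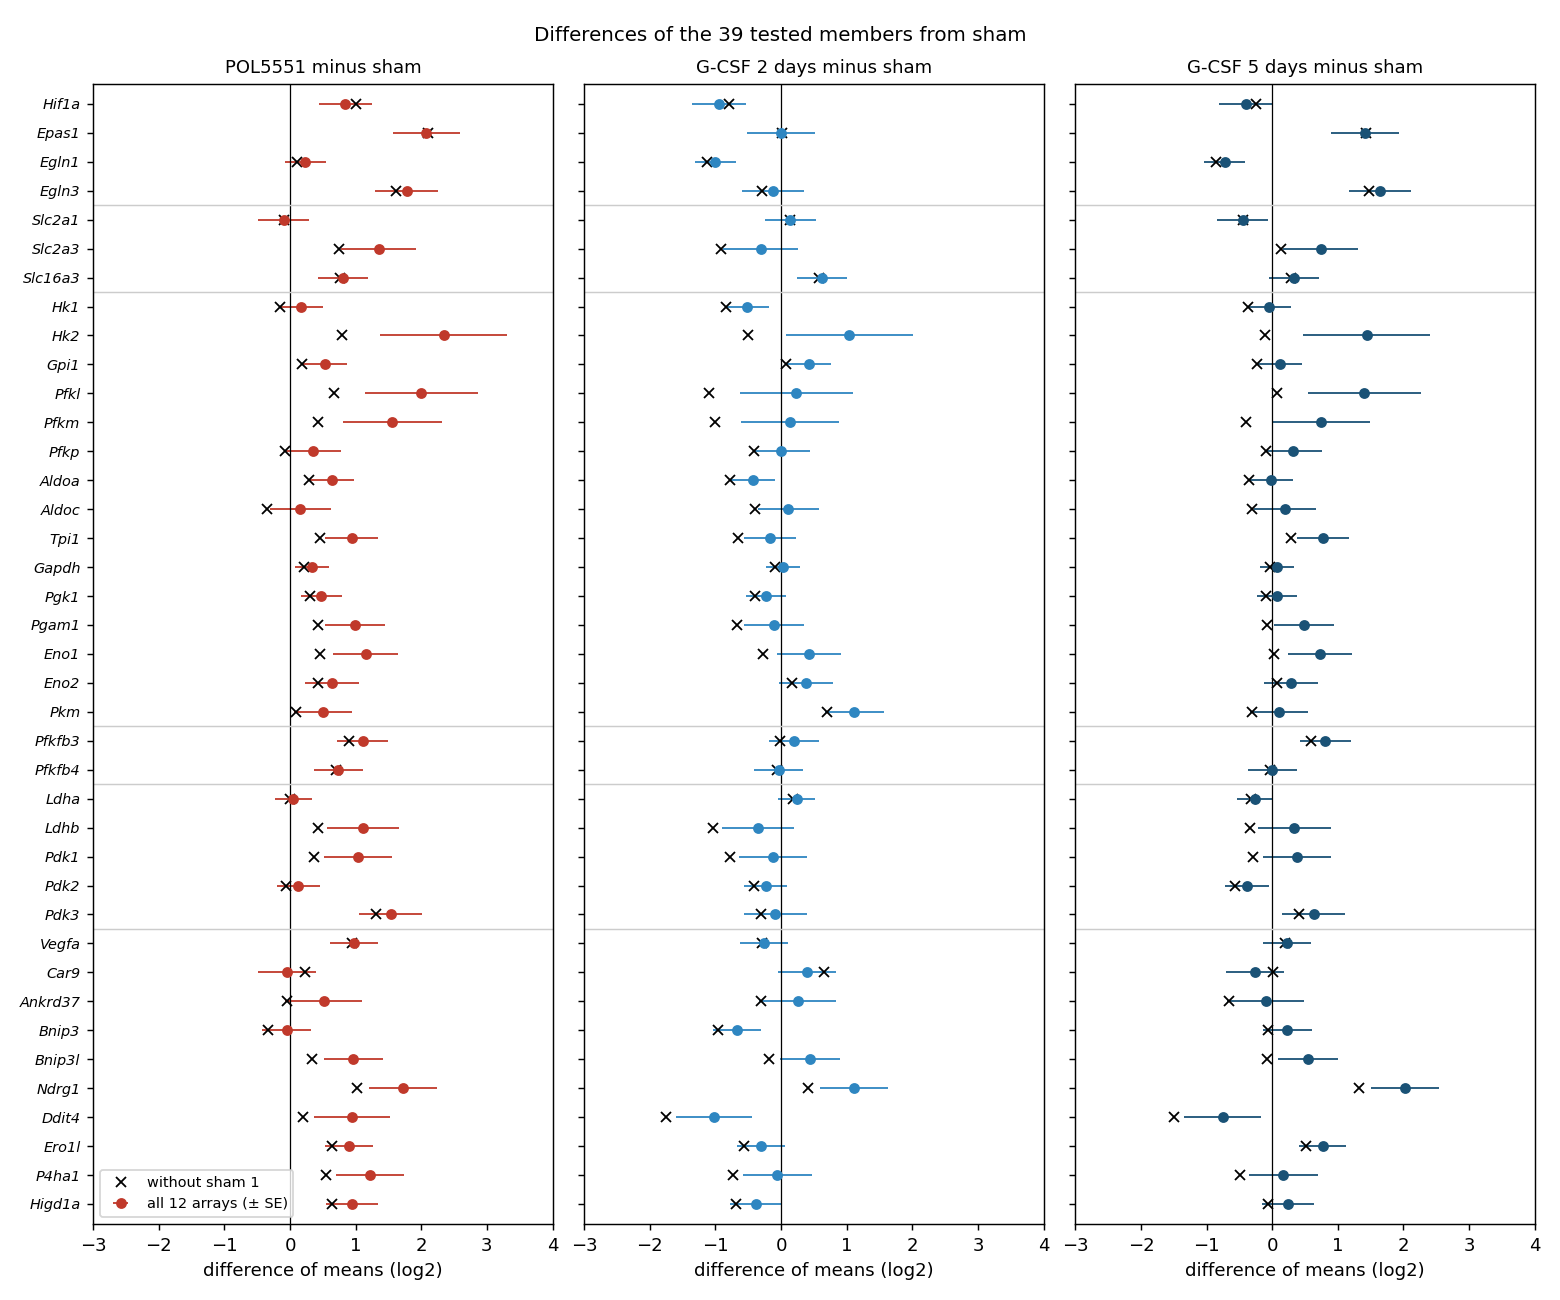
Difference of group means from sham (log2) for the 39 tested members, in rows by role, for POL5551, 2 days and 5 days of G-CSF from left to right; coloured points with bars are the difference ± SE from all 12 arrays, and crosses are the difference without sham 1. Hk2, Pfkl and Pfkm move most between the 2 estimates with POL5551, while Epas1 stays at 2.08 and 2.1.

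Between POL5551 and 2 days of G-CSF, 11 members rose with POL5551 and none fell: Hif1a, Epas1, Egln1, Egln3, Slc2a3, Aldoa, Pdk3, Vegfa, Ddit4, Ero1l and Higd1a. Over the genome 30.6% of genes were called in this comparison, 5.88% higher and 24.7% lower with POL5551. Counted in either direction, 11 of 39 members is close to that share of 30.6%. An unadjusted p under 0.05 was reached by 18 of 39 members and 49% of all genes. The members' median difference was 0.91, against -0.65 for all genes, and 27 members did not overlap, all higher with POL5551, against 21.8% of all genes higher without overlap and 43.4% lower. Egln3 passed the filter only through POL5551 and 5-day mice and had no 2-day array above background, so a difference was built into its choice. Of the 38 members above background on at least 1 array of both groups, 10 were called higher and none lower, against 6.03% and 23.3% of such genes. Of the 20 members among the 8297 brightest genes 3 were called higher, against 8.08% of those genes. The median difference was 0.718 for these 20 members and 0.305 for the 8297 genes. The 2-day mice were the only ones on slide 3, so the part of the slide in these calls cannot be told apart from that of the treatment. The count of 11 depended on single mice. It was 0 without POL5551 1 or without 2-day mouse 1, 1 without 2-day mouse 3, 4 without POL5551 2, 7 without POL5551 3 or 2-day mouse 2, and 22 without sham 1, whose spread enters the fit. It was also 0 with the off-tissue covariate and 10 to 22 under the other settings tried. Of all 10161 genes called here, 19.2% were higher with POL5551, a share that was 49% with median scaling, 30.4% with quantile normalization and 34.7% with normexp and quantile normalization; the median of all genes between POL5551 and sham was -0.12 with median scaling, against -0.52 in the main scaling.

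No member was called between 5 and 2 days of G-CSF, where 30 of 39 were nominally higher at 5 days with a median of 0.40 against -0.27 for all genes, and no gene on the array was called. The 8297 brightest genes had a median of 0.083 here, and the 20 members among them 0.303. At 5 days 13 members lay wholly above and 2 wholly below the 2-day mice, against 11.7% and 23.2% of all genes. An unadjusted p under 0.05 was reached by 6 of 39 members and 16.2% of all genes. None was called between POL5551 and 5 days of G-CSF either, where 36 of 39 were nominally higher with POL5551, with a median of 0.48 against -0.28 for all genes, and 0.0603% of genes were called, each of them lower. In this comparison the median was 0.111 for the 8297 brightest genes and 0.417 for the 20 members among them. For 18 members the POL5551 mice lay wholly above the 5-day mice and for none below, against 10.3% and 15.2% of all genes. There 3 of 39 members and 11.6% of all genes had an unadjusted p under 0.05. On slide 5, which held 1 mouse of each of these groups, the median was 0.31, with 31 of 39 higher with POL5551. By the F test over the 4 groups no member was called, against 1.35% of genes, and 11 members had an unadjusted p under 0.05, against 34% of genes. Without sham 1 the F test called 12 members and 23.7% of all genes. POL5551 had the highest of the 4 group means for 32 of 39 members (28 without sham 1), and the 2-day group the lowest for 20 (28 without sham 1).

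Of the oxygen-sensing members, Hif1a, Epas1 and Egln1 rose with POL5551 relative to 2 days of G-CSF, while Egln3 was at background in the 2-day mice and its difference has only a bound. Differences of group means are on the log2 scale, ± SE from the fit over all 12 arrays, with n = 3 mice a group. Hif1a, which encodes the alpha subunit of HIF-1, was at 0.07, 0.88 and -0.33 in the POL5551 mice, -1.3, -1.39 and -2.08 in the 2-day and -0.54, -1.31 and -1.29 in the 5-day G-CSF mice, and -0.32, -1.08 and -0.51 in sham. The POL5551 mice lay above both G-CSF groups and overlapped sham, and the 2-day mice lay below sham. The difference was 1.79 ± 0.41 between POL5551 and 2 days (3.46-fold, adjusted p = 0.0165), 0.84 ± 0.41 between POL5551 and sham (adjusted p = 0.157) and -0.95 ± 0.41 between 2 days and sham (adjusted p = 0.525). Without sham 1 the differences from sham were 1.0 with POL5551 and -0.79 at 2 days. The probe, at chr12:75047819-75047878 on mm9, matches the RefSeq mRNA. A dimmer probe to a single cDNA clone read differently after G-CSF, with 1.08 above sham at 2 days, and on the mean of both probes the POL5551 difference from 2 days was 0.64 and that of 2 days from sham 0.07.

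Epas1 encodes HIF-2 alpha, the related subunit that is prominent in endothelial and stromal cells. Its level was 1.26, 0.12 and 1.16 with POL5551, -1.61, -1.76 and -0.34 in 2-day G-CSF mice, 1.0, -0.68 and 0.22 in 5-day mice and -1.19, -1.46 and -1.05 in sham mice. With POL5551 every mouse lay above every sham and 2-day mouse, and the 5-day mice lay above sham but reached into the range of POL5551. The difference was 2.08 ± 0.52 from sham (4.22-fold), whose adjusted p of 0.0579 was the smallest of any member in a comparison with sham, and 2.1 without sham 1. Relative to 2 days it was 2.08 ± 0.52 (adjusted p = 0.0199), and between 5 days and sham 1.41 ± 0.52 (adjusted p = 0.379). The last value was -0.006 with slide as a block. The off-tissue covariate left the POL5551 difference from 2 days at 1.96 without a call.

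Some stromal markers, but not all, moved with Epas1 between the groups. The summed level of 10 stromal genes, all above background on at least some arrays and 9 of them on every array, was 4.21 to 5.99 with POL5551, 3.09 to 5.60 after 2 days, 3.79 to 5.60 after 5 days and 2.27 to 3.57 in sham mice (log2). Cxcl12, the stromal ligand of CXCR4, was at 3.03, 1.45 and 3.16 with POL5551, -1.48, -1.38 and 2.34 after 2 days, 2.94, 1.03 and 2.62 after 5 days and -0.48, -0.75 and -1.54 in sham mice. Epas1 was lowest among POL5551 mice in mouse 2 and highest among 2-day mice in mouse 3, as was Cxcl12. Both were lowest among 5-day mice in mouse 2, but among sham mice sham 3 was highest for Epas1 and lowest for Cxcl12. Pdgfra did not rise, at -3.456, -2.703 and -3.282 with POL5551 and -1.833, -2.163 and -2.988 in sham mice. Neither did Kitl, at -0.207, -0.813 and 0.212 with POL5551 and 1.447, 0.028 and -0.559 in sham mice. Neutrophil markers, 8 of 10 above background on every array, summed to 2.68 to 3.85 with POL5551 and 2.50 to 3.39 after 2 days. These sums were 3.16 to 3.64 after 5 days and 2.22 to 3.43 in sham mice. Within groups, all but Mpo and Ctsg were lowest in POL5551 mouse 2 and highest in 2-day mouse 3, as were Epas1 and Cxcl12. Erythroid markers summed to 4.20 to 4.71 with POL5551 and 6.21 to 6.57 after 2 days. Their sums were 4.33 to 5.65 after 5 days and 5.48 to 7.04 in sham mice. Most of this was a single gene, Ermap, at 3.95, 3.915 and 4.403 with POL5551 and 6.973, 5.335 and 5.662 in sham mice. Tfrc, dim in sham mice, went the other way, at -1.949, -2.981 and -3.134 with POL5551 and -4.455, -5.278 and -3.259 in sham mice. Hba-a1 and Epor overlapped between these groups. T and NK cell markers, 5 of 7 above background on every array, summed to 1.66 to 2.49 with POL5551 and 4.01 to 5.13 after 2 days. Their sums were 2.11 to 3.37 after 5 days and 2.45 to 4.08 in sham mice. Cd4 made up most of this sum, at 1.545, 2.107 and 1.073 with POL5551 and 5.023, 3.802 and 4.17 after 2 days. The sort and stem cell markers, 9 of 12 above background on every array, summed to 5.54 to 5.60 with POL5551, 4.79 to 5.18 after 2 days, 5.06 to 5.27 after 5 days and 4.75 to 5.59 in sham mice. The part of other cell types in the result was not tested, and in sorted cells measured in bulk, fewer cells of a type and less RNA per cell cannot be told apart.

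Egln1 (PHD2) is the main prolyl hydroxylase that marks HIF alpha subunits under normal oxygen. It stood at 2.16, 2.6 and 2.21 in the POL5551 mice, 0.76, 1.49 and 1.02 in the 2-day and 1.57, 1.47 and 1.06 in the 5-day G-CSF mice, and 1.85, 2.09 and 2.35 in sham. POL5551 and sham mice overlapped, and all 6 G-CSF mice lay below all 6 others. The difference was 1.24 ± 0.31 between POL5551 and 2 days (2.35-fold, adjusted p = 0.0206) and 0.23 ± 0.31 between POL5551 and sham (adjusted p = 0.568), the last being 0.11 without sham 1. From sham, the G-CSF groups differed by -1.0 ± 0.31 at 2 days (adjusted p = 0.429) and -0.73 ± 0.31 at 5 days (adjusted p = 0.426).

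Egln3 (PHD3), a hydroxylase that is itself induced by HIF, was dim. It was well above background in 2 of 3 POL5551 mice, no 2-day mouse, 3 of 3 5-day mice and no sham mouse. Its level was -3.08, -4.8 and -3.71 in the POL5551 mice, -5.08, -6.2 and -6.01 in the 2-day and -4.12, -4.06 and -3.81 in the 5-day G-CSF mice, and -5.98, -5.06 and -5.88 in sham. Since the 2-day and sham values are at background, the difference has only a bound, set by the lowest signal well above background on each array: at least 1.8-fold higher with POL5551 than after 2 days (adjusted p = 0.0201) and at least 1.72-fold higher with POL5551 than in sham mice (adjusted p = 0.0629). The 5-day mice were at least 1.57-fold above sham (adjusted p = 0.32) and at least 1.64-fold above the 2-day mice (adjusted p = 0.25). The POL5551 mean includes mouse 2, which was not well above background. Since Egln3 passed the filter through POL5551 and 5-day mice alone, these p-values are given as a description.

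**Figure D3:**
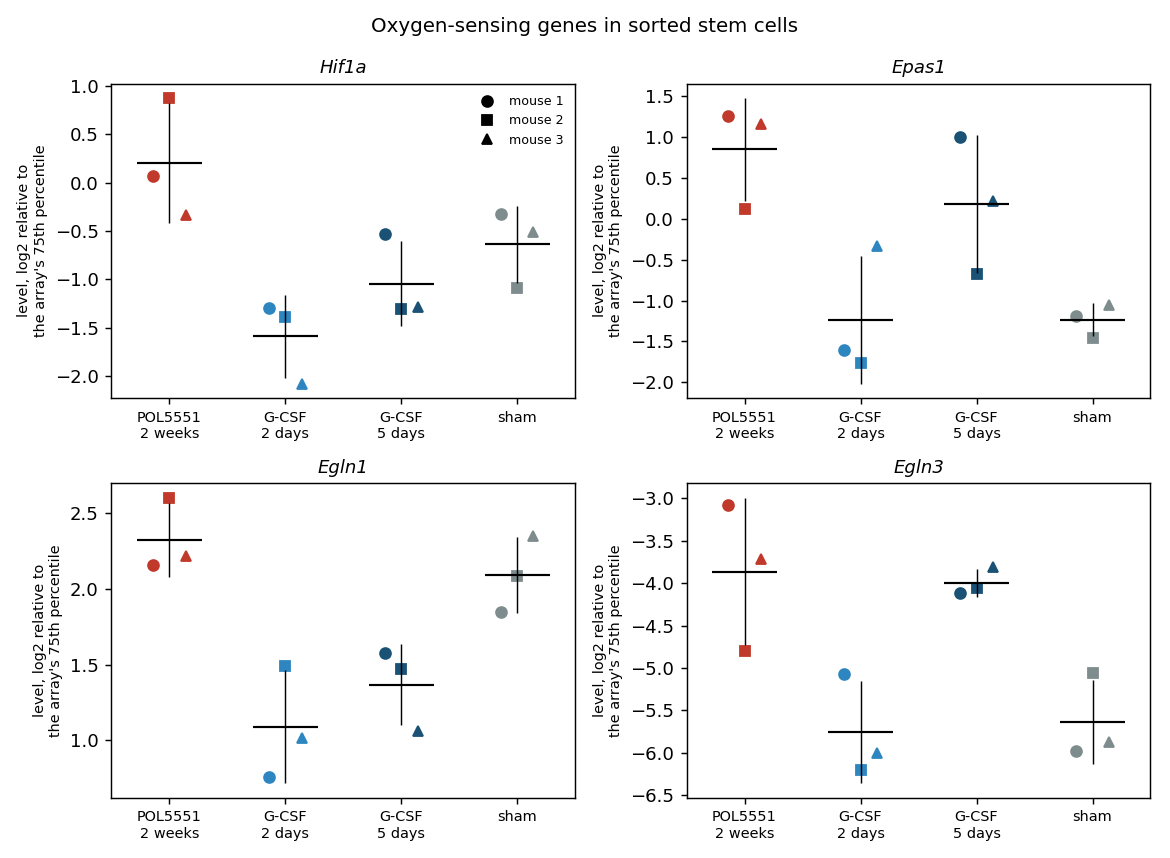
Level of the 4 oxygen-sensing genes (log2 relative to the array's 75th percentile) in each mouse, for POL5551, 2 days of G-CSF, 5 days of G-CSF and sham from left to right; horizontal lines are group means, vertical lines ± SD (n = 3), and the shape marks the mouse number. For Hif1a and Egln1 the 2-day group has the lowest mean and POL5551 the highest; for Egln3 the 2-day and sham mice are at background and have no order.

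Of the 3 transporters, Slc2a3 rose with POL5551 relative to 2 days and the others did not pass. Slc2a1 (GLUT1), the basal glucose transporter, stood at -0.09, 0.53 and -0.48 with POL5551, 0.96, -0.43 and 0.14 in 2-day G-CSF mice, -0.12, -0.39 and -0.59 in 5-day mice and 0.08, 0.12 and 0.04 in sham mice. The groups overlapped except that the 5-day mice lay just below sham, and its differences from sham were -0.1 with POL5551, 0.14 at 2 days and -0.45 at 5 days, with adjusted p of 0.649 or more. Slc2a3 (GLUT3), a high-affinity glucose transporter, was at 1.85, 0.43 and 1.66 with POL5551, -0.83, -0.43 and 0.21 in 2-day G-CSF mice, 0.74, 1.1 and 0.28 in 5-day mice and -1.26, 0.21 and 0.94 in sham mice. POL5551 mice lay above the 2-day mice by 1.66 ± 0.57 (3.16-fold, adjusted p = 0.0484) and overlapped sham, with a difference of 1.35 that was 0.74 without sham 1. Slc2a3 was called in 3 of the 12 fits that left out a mouse and in 5 of the 12 other settings. These were the fewest among the 11 called members. Like Epas1, Slc2a3 was lowest in mouse 2 of the POL5551 group and highest in mouse 3 of the 2-day group. Unlike Epas1, it was highest in mouse 2 of the 5-day group, where Epas1 was lowest. Slc16a3 (MCT4), the lactate exporter, differed from sham by 0.81 with POL5551 (adjusted p = 0.152; 0.76 without sham 1), 0.62 at 2 days and 0.33 at 5 days.

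On the chosen probes, all 15 glycolytic enzymes were nominally above sham with POL5551, by 0.16 to 2.34, and none was called. Without sham 1 the differences ran from -0.35 to 0.8, with 12 above and 3 below. Hexokinases phosphorylate glucose in the first step. Hk1, the constitutive form, was at 5.21, 5.35 and 5.3 with POL5551, 4.43, 4.61 and 4.77 in 2-day G-CSF mice, 4.73, 5.18 and 5.3 in 5-day mice and 4.47, 5.4 and 5.49 in sham mice. POL5551 overlapped sham with a difference of 0.17 ± 0.33 (adjusted p = 0.703) that turned to -0.16 without sham 1. The other tested Hk1 probes were all below sham with POL5551, at -1.91, -1.69, -0.12 and -0.02, the lowest values coming from dim probes. Hk2, the inducible form, was at -0.27, 0.19 and -0.61 in the POL5551 mice, -1.63, -1.35 and -1.61 in the 2-day and -0.8, -1.1 and -1.49 in the 5-day G-CSF mice, and -5.65, -1.04 and -1.01 in sham. Its difference of 2.34 ± 0.97 from sham, the highest of any member with POL5551, came down to 0.8 without sham 1, where the gene was not well above background (adjusted p = 0.123 with and 0.234 without it). The same array decided the differences of Hk2 after G-CSF, which were 1.04 at 2 days and 1.44 at 5 days with sham 1 and -0.5 and -0.1 without it.

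Phosphofructokinase commits glucose to glycolysis and has 3 isoform genes. The liver-type gene Pfkl was at 2.44, 2.24 and 2.28 in the POL5551 mice, 0.16, 0.89 and 0.61 in the 2-day and 1.93, 1.97 and 1.27 in the 5-day G-CSF mice, and -2.35, 1.28 and 2.03 in sham. Its difference from sham with POL5551 was 2.0 ± 0.86 (adjusted p = 0.131) and 0.67 without sham 1, and 2 dimmer probes of Pfkl gave 0.02 and -0.54. The muscle-type gene Pfkm behaved alike, with 1.56 and 0.42. The platelet-type gene Pfkp was at 2.07, 0.64 and 1.32 in the POL5551 mice, 0.89, 1.28 and 0.83 in the 2-day and 1.27, 1.43 and 1.28 in the 5-day G-CSF mice, and 0.17, 1.49 and 1.35 in sham, with overlapping groups and a difference of 0.34 ± 0.43 (adjusted p = 0.541) that turned to -0.07 without sham 1. Of its 4 other tested probes, 2 were above and 2 below sham with POL5551.

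Aldoa, the aldolase that splits fructose bisphosphate, was the only called enzyme, and only between POL5551 and 2 days. It was at 3.5, 3.63 and 3.53 in the POL5551 mice, 2.39, 2.57 and 2.5 in the 2-day and 3.01, 3.11 and 2.58 in the 5-day G-CSF mice, and 2.23, 3.27 and 3.24 in sham. The POL5551 mice varied little and lay above all 9 others; the difference was 1.07 ± 0.33 from 2 days (2.1-fold, adjusted p = 0.0356), 0.64 ± 0.33 from sham (adjusted p = 0.176) and 0.3 from sham without sham 1. The call was lost in 6 of the 12 fits that left out a mouse. Its relative Aldoc differed from sham by 0.16, 0.11 and 0.2 with POL5551 and after 2 and 5 days (-0.35, -0.39 and -0.31 without sham 1), and had the smallest F of the 39 members.

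Gapdh, which oxidises glyceraldehyde 3-phosphate, stood at 6.08, 5.97 and 6.01 with POL5551, 5.57, 5.7 and 5.86 in 2-day G-CSF mice, 5.61, 5.77 and 5.9 in 5-day mice and 5.46, 5.74 and 5.86 in sham mice. The POL5551 mice were above all 9 others, by 0.34 ± 0.26 relative to sham (adjusted p = 0.327), or 0.22 without sham 1. Gapdh has many processed pseudogenes, and of its 6 other probes 5 were above and 1 below sham with POL5551. Pgk1, phosphoglycerate kinase, which makes the first ATP of the pathway, was at 4.03, 4.36 and 4.14 in the POL5551 mice, 3.15, 3.63 and 3.64 in the 2-day and 3.87, 4.05 and 3.4 in the 5-day G-CSF mice, and 3.35, 3.77 and 3.97 in sham, and its difference of 0.48 ± 0.31 did not pass (adjusted p = 0.25) and was 0.31 without sham 1. The remaining enzymes between Hk2 and pyruvate (Gpi1, Tpi1, Pgam1, Eno1 and Eno2) differed from sham by 0.54 to 1.16 with POL5551, -0.17 to 0.43 after 2 days and 0.12 to 0.78 after 5 days, and none was called in any comparison. Leaving out sham 1, the same differences ran from 0.18 to 0.46 with POL5551, -0.67 to 0.17 after 2 days and -0.23 to 0.29 after 5 days, with the sign turned for Eno1 at 2 days and for Gpi1 and Pgam1 at 5 days. Tpi1, triose phosphate isomerase, came nearest, with 1.11 ± 0.4 between POL5551 and 2 days (adjusted p = 0.0529).

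Pkm, pyruvate kinase, which makes pyruvate in the last step, was ordered otherwise. It was at 3.84, 4.14 and 3.9 with POL5551, 5.06, 4.0 and 4.66 in 2-day G-CSF mice, 4.13, 3.41 and 3.14 in 5-day mice and 2.63, 3.53 and 4.21 in sham mice. The 2-day mice had the highest mean and overlapped sham, and the difference of 1.12 ± 0.45, the highest of any member at 2 days, did not pass (adjusted p = 0.498) and was 0.7 without sham 1. Of 3 other Pkm probes, 1 was above sham at 2 days, by 0.26, and 2 were below, by 0.01 and 0.56.

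**Figure D4:**
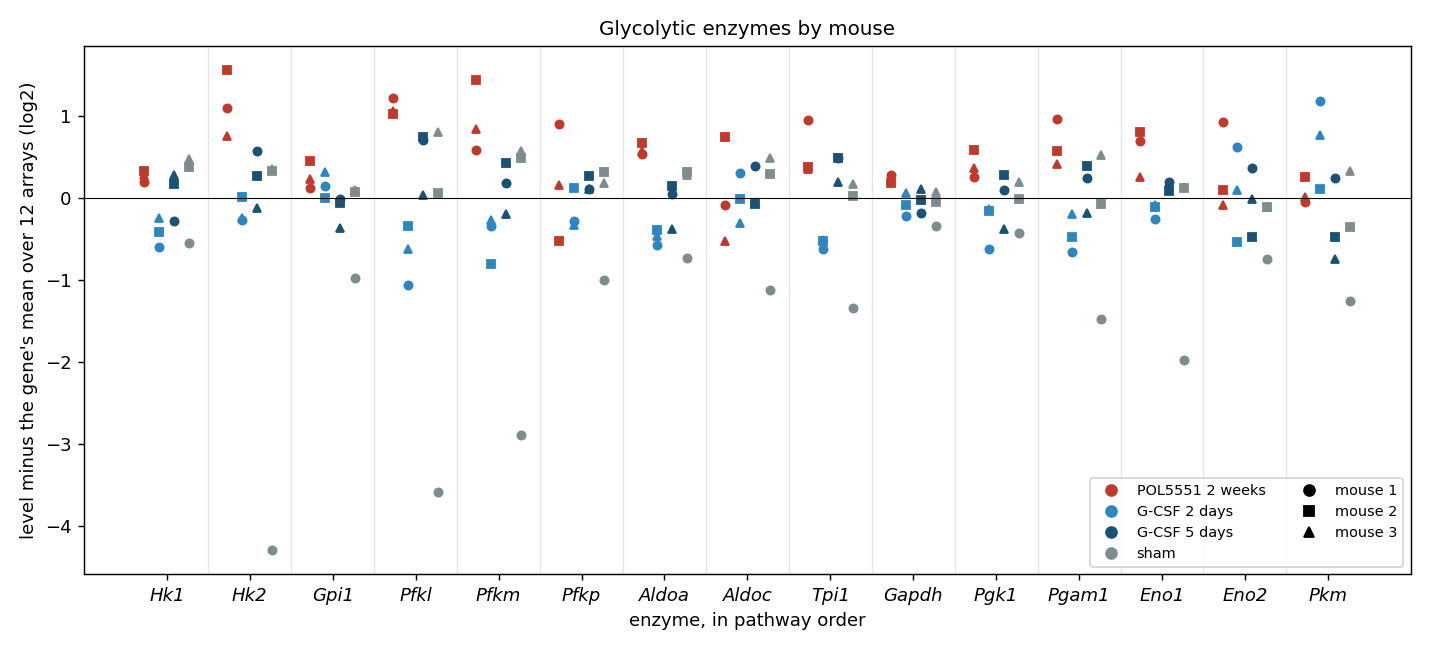
Level of each of the 15 glycolytic enzymes in each mouse, minus the gene's mean over the 12 arrays (log2), in pathway order from left to right; colours are groups and shapes mouse numbers, and within an enzyme the groups run from POL5551 to sham. The grey circle is sham 1, which is the lowest point of Hk2, Pfkl and Pfkm by far. The POL5551 mice lie above all others for Hk2, Pfkl, Pfkm, Aldoa, Gapdh and Eno1.

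The flux regulators Pfkfb3 and Pfkfb4 set the level of fructose 2,6-bisphosphate, the activator of phosphofructokinase. With POL5551 they differed from sham by 1.11 (adjusted p = 0.0947) and 0.74 (adjusted p = 0.17), and by 0.9 and 0.7 without sham 1. Differences after 5 days were 0.81 and 0.00, and after 2 days 0.2 and -0.03.

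Pyruvate goes to lactate through lactate dehydrogenase or into the mitochondrion through pyruvate dehydrogenase, which the Pdk kinases shut off. Ldha, the lactate dehydrogenase subunit induced by HIF, was at 5.37, 5.71 and 5.13 in the POL5551 mice, 5.57, 5.4 and 5.77 in the 2-day and 5.1, 5.08 and 5.08 in the 5-day G-CSF mice, and 5.23, 5.21 and 5.6 in sham. POL5551 and sham overlapped with a difference of 0.05 ± 0.28 (adjusted p = 0.891; -0.01 without sham 1), and the 5-day mice lay just below sham, with a difference of -0.26 ± 0.28 (adjusted p = 0.71). A dimmer Ldha probe gave 1.06 above sham with POL5551 and 0.93 after 5 days. Ldhb, the other subunit, differed by 1.12 from sham with POL5551 and 0.43 without sham 1.

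Pdk1, a HIF target, stood at 1.08, 0.68 and 0.94 with POL5551, 0.14, -0.59 and -0.32 in 2-day G-CSF mice, 0.59, 0.32 and -0.18 in 5-day mice and -1.47, 0.19 and 0.87 in sham mice. POL5551 mice overlapped sham, with a difference of 1.04 ± 0.52 (adjusted p = 0.166) that was 0.37 without sham 1. Pdk2 differed from sham by 0.13, -0.24 and -0.38 with POL5551 and after 2 and 5 days; without sham 1 the first was -0.05. Pdk3 was at 0.92, 1.65 and 0.65 with POL5551, -0.19, 0.15 and -1.61 in 2-day G-CSF mice, 0.26, 0.14 and 0.13 in 5-day mice and -0.9, 0.13 and -0.6 in sham mice. The POL5551 mice lay above all 9 others, with 1.62 ± 0.48 relative to 2 days (3.08-fold, adjusted p = 0.0303), 1.53 ± 0.48 relative to sham (adjusted p = 0.0781) and 1.31 without sham 1. A second Pdk3 probe gave 1.22 above sham with POL5551, 0.01 after 2 days and 0.78 after 5 days.

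Of the 10 other hypoxia-inducible genes tested, 4 rose with POL5551 relative to 2 days of G-CSF. Ddit4 (REDD1), an inhibitor of mTORC1 signalling under stress, was at 1.37, 2.19 and 1.3 in the POL5551 mice, -0.96, 0.31 and -0.39 in the 2-day and 0.15, -0.09 and -0.29 in the 5-day G-CSF mice, and -0.81, 1.21 and 1.63 in sham. POL5551 overlapped sham and lay above all 6 G-CSF mice, by 1.97 ± 0.58 relative to 2 days (3.9-fold, adjusted p = 0.0316) and 1.7 ± 0.58 relative to 5 days (adjusted p = 0.392). Between POL5551 and sham the difference was 0.94 ± 0.58 (adjusted p = 0.235), and only 0.2 without sham 1. Below sham, the differences were -1.02 ± 0.58 at 2 days (adjusted p = 0.639) and -0.75 ± 0.58 at 5 days (adjusted p = 0.615), and -1.76 and -1.5 without sham 1, neither called. With the off-tissue covariate its difference between POL5551 and 2 days was -0.02.

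Ero1l, the oxidase that forms disulphide bonds in the endoplasmic reticulum, was at -0.77, -0.42 and -0.79 in the POL5551 mice, -2.1, -1.25 and -2.25 in the 2-day and -0.94, -0.52 and -0.92 in the 5-day G-CSF mice, and -2.08, -1.47 and -1.13 in sham. POL5551 and 5-day mice overlapped each other and lay above sham and the 2-day mice, with 1.2 ± 0.36 between POL5551 and 2 days (adjusted p = 0.0325), 0.9 ± 0.36 between POL5551 and sham (adjusted p = 0.118) and 0.77 ± 0.36 between 5 days and sham (adjusted p = 0.459). Leaving out sham 1, the differences from sham were 0.64 with POL5551 and 0.51 at 5 days. Higd1a, a small mitochondrial protein induced by hypoxia, was at 1.4, 2.21 and 0.97 with POL5551, 0.04, 0.51 and 0.03 in 2-day G-CSF mice, 1.01, 0.92 and 0.52 in 5-day mice and -0.03, 0.84 and 0.92 in sham mice. It was 1.33 ± 0.39 higher with POL5551 than after 2 days (2.52-fold, adjusted p = 0.0306), while the difference of 0.95 ± 0.39 from sham did not pass (adjusted p = 0.123) and was 0.65 without sham 1.

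Vegfa, the main angiogenic growth factor, was at 0.85, 0.7 and 0.97 in the POL5551 mice, -0.56, 0.00 and -0.66 in the 2-day and 0.78, 0.02 and -0.54 in the 5-day G-CSF mice, and -0.2, 0.14 and -0.36 in sham. POL5551 mice lay above all sham and 2-day mice, by 1.25 ± 0.37 relative to 2 days (2.37-fold, adjusted p = 0.0305) and 0.98 ± 0.37 relative to sham (adjusted p = 0.104; 0.95 without sham 1). Its probes disagreed. Of 3 dimmer ones, 1 gave 1.07 above sham with POL5551 and 2 gave -1.05 and -0.31, and on the mean of all probes the difference from 2 days was 0.38 and was not called.

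**Figure D5:**
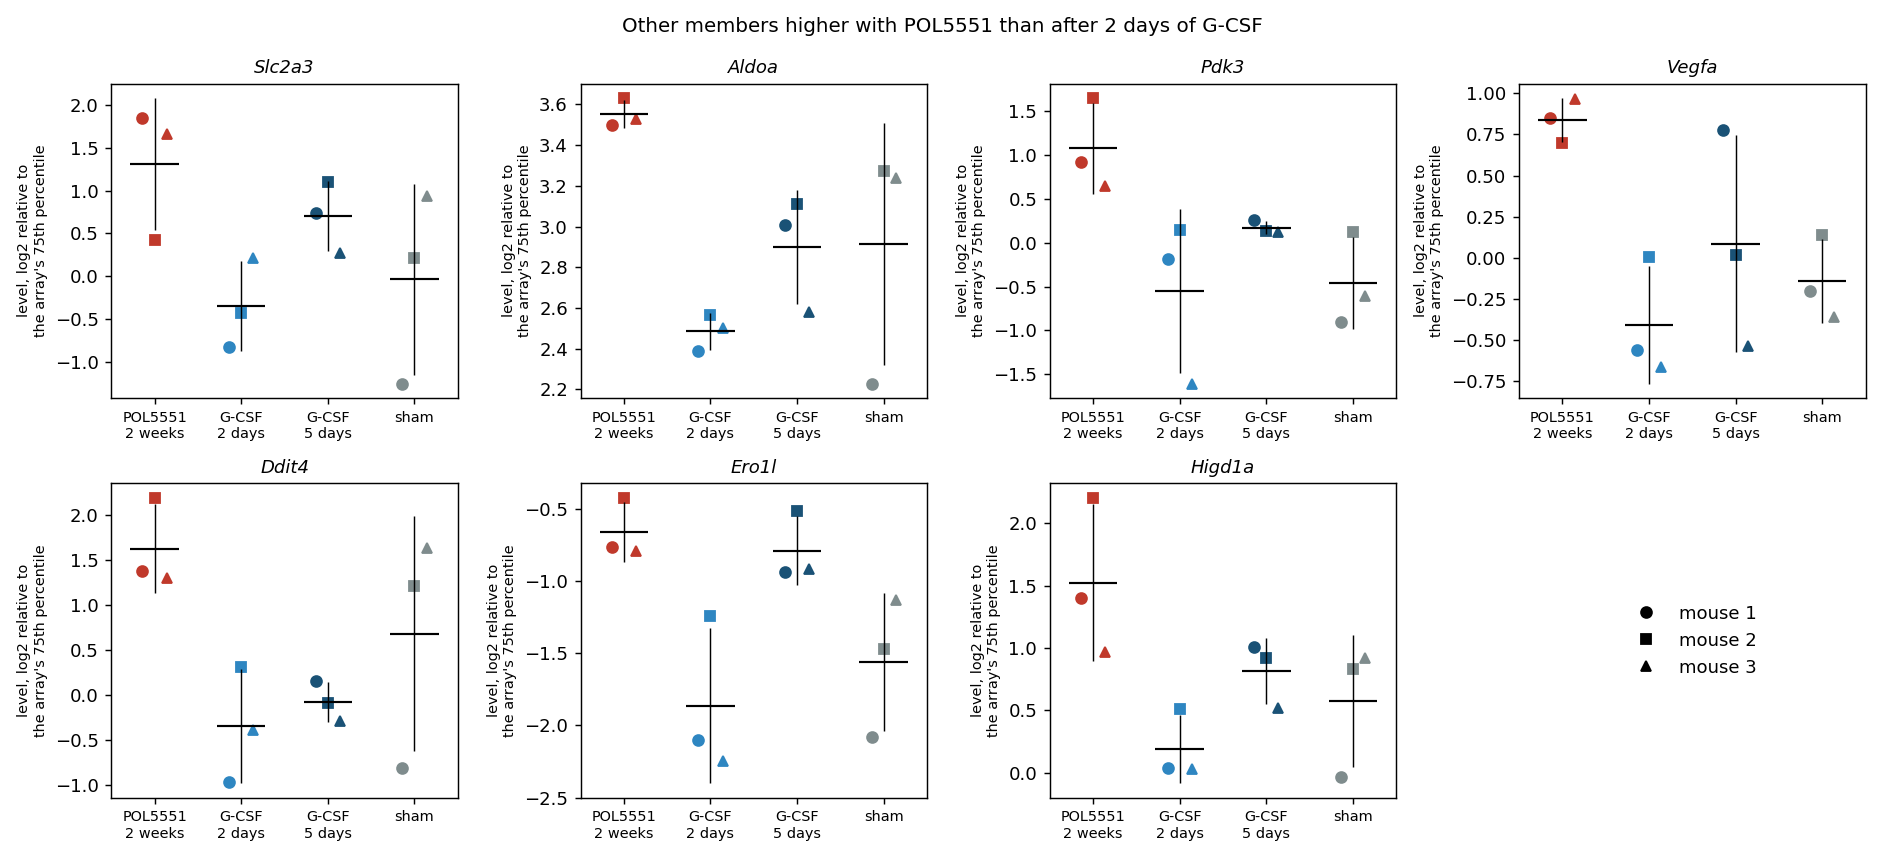
Level of the other 7 members that were called between POL5551 and 2 days of G-CSF (log2 relative to the array's 75th percentile) in each mouse, for POL5551, 2 days of G-CSF, 5 days of G-CSF and sham from left to right; horizontal lines are group means, vertical lines ± SD (n = 3), and the shape marks the mouse number. In each panel the POL5551 mice lie above the 2-day mice, and sham 1 (circle) is the lowest sham mouse except for Vegfa.

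Ndrg1, a gene strongly induced by hypoxia in many cells, was the member with the highest difference from sham after 5 days. It was at 0.87, 1.23 and 0.72 with POL5551, 0.34, 0.53 and 0.12 in 2-day G-CSF mice, 1.67, 1.33 and 0.75 in 5-day mice and -2.17, -0.17 and 0.01 in sham mice. All 9 treated mice lay above sham, by 1.72 ± 0.52 with POL5551 (adjusted p = 0.0751), 1.11 ± 0.52 at 2 days (adjusted p = 0.557) and 2.03 ± 0.52 at 5 days (adjusted p = 0.267). Without sham 1 these were 1.02, 0.41 and 1.33, none called, and the POL5551 difference was -0.01 with the off-tissue covariate.

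Bnip3, a receptor for the removal of mitochondria, stood at 0.87, 0.35 and 0.53 with POL5551, -0.2, -0.19 and 0.29 in 2-day G-CSF mice, 0.62, 0.66 and 1.32 in 5-day mice and 0.05, 0.59 and 1.26 in sham mice. Car9 (carbonic anhydrase 9, an enzyme of hypoxic cells) was at 0.47, 2.16 and 1.23 in the POL5551 mice, 1.8, 1.95 and 1.43 in the 2-day and 1.44, 0.73 and 1.05 in the 5-day G-CSF mice, and 1.86, 0.83 and 1.31 in sham. Both were among the 3 lowest differences from sham with POL5551, at -0.05 and -0.05, overlapping sham, or -0.34 and 0.22 without sham 1. For Car9 a dimmer second probe gave 3.00, 3.30 and 3.10 above sham with POL5551 and after 2 and 5 days, where the brighter probe gave -0.05, 0.39 and -0.26. The remaining members Ankrd37, Bnip3l and P4ha1 differed from sham by 0.51, 0.96 and 1.22 with POL5551, and by -0.05, 0.34 and 0.55 without sham 1. Over all members, 48 other tested probes of 23 genes had the sign of the chosen probe in 35 cases with POL5551, 27 after 2 days and 35 after 5 days.

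The rest of the pathway was taken from lists of 87 further genes, of which 85 were tested. Only 1 of them was called in a comparison with sham. It was Fbp1, a gluconeogenic phosphatase that opposes phosphofructokinase, which rose by 2.06 ± 0.39 with POL5551 (adjusted p = 0.0335); without sham 1 the difference was 1.96 and was not called (adjusted p = 0.0958). The median over these genes was 0.36 with POL5551, -0.04 after 2 days and 0.18 after 5 days. After G-CSF the lowest p-values included those of Gbe1, the glycogen branching enzyme, with differences of -1.72 ± 0.38 after 2 days (adjusted p = 0.257) and -1.18 ± 0.38 after 5 days (adjusted p = 0.347), or -1.71 and -1.16 without sham 1.

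Between POL5551 and 2 days, 12 of the 85 rose and 9 fell, against 11 and 0 of the 39 members and 5.88% and 24.7% of all genes; the difference between these counts was not tested. The genes that rose were Pdhb, Dld, G6pdx, Fbp1, Pgm2, Pygl and Mdh1 of glucose metabolism and Vhl, Ep300, Hmox1, Gbe1 and Fam162a of the hypoxia list. Dld, a subunit of the pyruvate dehydrogenase complex, was well above background in 3 POL5551, 0 2-day, 2 5-day mice and 1 sham mouse. It was at least 6.04-fold higher with POL5551 than after 2 days (adjusted p = 0.0138), and no difference from sham is given. Dld passed the filter without any 2-day array, so a difference was built into its choice and the p-value is given as a description. Vhl encodes the recognition subunit of the ligase that destroys hydroxylated HIF alpha, and its difference was 1.41 ± 0.37 (adjusted p = 0.0218). Hmox1, haem oxygenase, was higher by 2.46 ± 0.71 (adjusted p = 0.0292). Those that fell included Pfkfb1, Pgd, Fbp2 and Gpd1 and, of the hypoxia list, Bhlhe40, Pdgfb and Ak4, a mitochondrial adenylate kinase lower by 2.86 ± 0.7 (adjusted p = 0.0196). Fbp2, the muscle-type counterpart of Fbp1, was not well above background in any POL5551 mouse and was at least 1.48-fold lower with POL5551 than after 2 days (adjusted p = 0.0379). It passed the filter without any POL5551 array, so its p-value too is given as a description. Dld and Fbp2 are both in the counts of genes that rose and fell.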

How the data were processed

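The deposited files are the scanner outputs of 12 Agilent single-colour arrays and a value table of the series. Per the file headers and the submitters' processing notes, Agilent Feature Extraction 11.5.1.1 made the processed red-channel intensity of each spot by background subtraction and detrending, with a surrogate value for spots not above background and no normalization between arrays. The authors' deposited value table holds intensity with nearly equal medians across columns, as after quantile normalization; the tool that made it is not given in the sources used here. Its columns match the scanner files by value for the same groups but for other mouse numbers in the POL5551 group and for mice 2 and 3 of the 5-day group, so it served as an alternative only.

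Control spots and outlier spots were left out, spots of a probe were averaged, and the level was the log2 of the deposited processed intensity minus that of the array's 75th percentile over non-control probes. A probe entered the test with 3 or more of 12 arrays well above background, and each gene was represented by the probe with the highest mean level. Differences were fitted with limma 3.58.1 in R 4.3.3 as group means over all 12 arrays, with moderated two-sided tests and Benjamini-Hochberg adjustment over the 33186 genes tested, at a threshold of 0.05. Mouse numbers were taken to pair 2 groups where residuals of all 3 same-numbered pairs correlated above 0.1, which held between 2 days and sham only (0.154 to 0.248, against -0.176 to 0.007 for other pairs). An exact permutation test of 3 against 3 mice cannot give a p below 0.1. Each array is 1 mouse, so precision is set by how many arrays there were. On simulated data for POL5551 against sham (32966 genes), the fit recovered 0% of 100 planted log2 changes of 1 and 16% of 100 of 2, with 1 false call. No other gene was changed there, while 35% of genes in the data had an unadjusted p under 0.05 in this comparison. The adjustment was thus stricter in the simulation, and its recovery does not give the power in the data.

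The members, lists and tests were chosen with earlier results of these data known. Some genes of the further pathway lists are not reported here. Genes given mouse by mouse were those called in any comparison, the 4 with the smallest F p, the 3 highest and 3 lowest differences from sham of each treatment, and a fixed list (Hif1a, Epas1, Slc2a1, Hk1, Hk2, Pfkp, Gapdh, Pgk1, Pkm, Ldha, Pdk1 and Vegfa). Probe positions are on mm9, as in the array design, and promoters on GRCm38.p6. Alternatives covered scaling, normalization, background correction, filters, probes, slide, replicate number, covariate, spread, the authors' values and each array left out.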

Additional observations from a re-analysis of the deposited data

How the results depend on the processing

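With 3 mice a group and 1 array standing apart, counts of called genes moved widely, while no alternative called a member in the comparisons of either G-CSF group with sham, of 5 with 2 days, or of POL5551 with 5 days. The comparisons are POL5551 or G-CSF minus sham unless another group is named, and the cause of each move was not tested.

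Counts of called members were 11 between POL5551 and 2 days, 0 between POL5551 and sham and 0 by the F test. They were 18 between POL5551 and 2 days with median scaling, 22 with only these 2 groups in the fit and 0 with the off-tissue covariate. Requiring all 12 arrays above background called 2 members between POL5551 and sham and 4 by F, and an intensity trend 1 and 4. The members' median difference was 1.36 from 2 days and 1.30 from sham with POL5551 under median scaling. With the off-tissue covariate it was -0.24 for POL5551 and -0.20 for 5 days against sham, -0.28 for POL5551 and -0.30 for 5 days against 2 days, and -0.067 for POL5551 against 5 days. That covariate also turned Slc2a3 to -0.20 and Ddit4 to -0.017 between POL5551 and 2 days, and Hk2 to -1.17, Pfkl to -1.16 and Ndrg1 to -0.007 between POL5551 and sham. The mean over probes turned Hif1a at 2 days to 0.068, and a slide block turned Epas1 at 5 days to -0.006.

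Of all genes, 758 were called for POL5551 against sham, 11 for 2 days, 22 for 5 days, 10161 for POL5551 against 2 days, 20 for POL5551 against 5 days, 0 for 5 against 2 days and 447 by F. For POL5551 against sham the count was 1896 with the stricter filter, 62 with the authors' values, 1903 with an intensity trend, 220 with median scaling, 28 with normexp, 83 with quantile normalization, 181 with the replicate block, 62 with only 2 groups and 0 with the covariate. By F it was 3660 with the stricter filter, 73 with the authors' values, 3091 with the trend, 215 with median scaling, 99 with quantile normalization and 23 with the covariate. Against 2 days, POL5551 had 6070 with the authors' values, 5919 with quantile normalization, 16941 with only 2 groups and 0 with the covariate. Against 5 days it had 5 with the stricter filter, 8 with the authors' values, 13 with the trend, 5 with normexp, 6 with the replicate block, 62 with only 2 groups, and 0 with the slide block or the covariate. For 2 days it was 5 with the stricter filter or normexp, 7 with the trend, 6 with the replicate block, 17 with the covariate and 0 with only 2 groups. For 5 days it was 12 with the stricter filter, 35 with the mean over probes, 14 with the replicate block, 1 with only 2 groups and 0 with the slide block, and for 5 against 2 days 1 with quantile normalization.

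Leaving out each mouse in turn gave 60 to 4711 called genes for POL5551 against sham, 2 to 166 for 2 days, 1 to 54 for 5 days, 0 to 14 for 5 against 2 days, 0 to 90 for POL5551 against 5 days, 52 to 17473 for POL5551 against 2 days and 55 to 7796 by F. Called members ran from 0 to 4 for POL5551 against sham, 0 to 22 against 2 days and 0 to 12 by F. Their median difference ran from 0.42 to 1.03 for POL5551, -0.40 to 0.17 for 2 days and -0.08 to 0.50 for 5 days against sham, 0.29 to 0.49 for 5 against 2 days, 0.37 to 0.57 for POL5551 against 5 days and 0.82 to 1.07 against 2 days. The slide block could not be fitted for comparisons with the 2-day group or for F. Mouse numbers met the criterion for pairing between the 2-day and sham groups only; over all groups same-numbered pairs had a median correlation of residuals of 0.06, with 7 of 18 over 0.1, and 6 of 12 arrays were closest to an array of their own number. The replicate block called 10 members between POL5551 and 2 days.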
